A study of Mus musculus with 6 samples.

Results

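The genes described here encode the subunits of oxidative phosphorylation (OXPHOS), the mitochondrial respiratory chain and ATP synthase, together with a small group of complex I assembly factors. They were the protein-coding genes of mouse assembly mm10 (GRCm38.p6, RefSeq) with symbols starting Nduf, Uqcr or Atp5, those starting Cox followed by 4, 5, 6, 7 or 8, and Sdha, Sdhb, Sdhc, Sdhd and Cyc1. The rule gave 97 genes, of which 85 had at least 1 ATAC-seq peak centred within 1 kb of either gene end. Their 91 peaks were a subset of 42632 peaks in the whole table and of 11270 peaks that lie this close to an end of any protein-coding gene, called gene-end peaks here. The rule itself uses gene symbols and positions and no measured value. Just inside the 1 kb limit lay peaks of Ndufa13 and Ndufb6, centred 866 and 920 bp from a gene end, and just outside it lay the nearest peaks to Atp5g3 and Cox6a2, at 1312 and 2054 bp.

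ATAC-seq counts the places where a transposase can insert into open chromatin. The cells, called LT-HSCs for long-term haematopoietic stem cells, came from bone marrow of C57BL/6 mice 10 to 16 weeks old and were sorted by the surface pattern Lin- Sca1+ cKit+ CD34- Flt3-. Unconfined cells (3 libraries) were kept for 16 h in suspension before the assay. Confined cells (3 libraries) were kept for 13 h in suspension, then attached for 0.5 h to glass coated with fibronectin, pressed for 2 h under a coverslip that left a height of 5 µm, and released from the glass with a dissociation reagent. Both groups shared the strain, the sort, the medium and the low-oxygen incubation. Attachment and release belonged to the confined group alone, so their effects and that of confinement cannot be told apart. The labels number 3 biological replicates per group and do not state whether each came from separate animals, so p-values measure the spread between these samples.

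Oxidative phosphorylation passes electrons from NADH through complex I, or from succinate through complex II, to ubiquinone, complex III, cytochrome c and complex IV, where oxygen is reduced. Complexes I, III and IV pump protons, and complex V, the ATP synthase, uses the resulting gradient to make ATP. The subunits of complex II, and most subunits of the other complexes, are encoded in the nucleus, where their promoters are typically open in many cell types. Quiescent haematopoietic stem cells are known for low mitochondrial respiration and reliance on glycolysis, and for raising respiration when they leave quiescence.

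Most of the peaks were promoter peaks. RefSeq start sites were at hand for 78 of the 97 genes, and 69 of the 91 peaks had their centre within 1 kb of the gene's own listed start, at a median distance of 84.5 bp. In 68 of these 69 peaks the start lay within 350 bp of the centre and hence inside the peak, since all peaks were 700 bp wide. A further 5 peaks had their centre more than 1 kb from the gene's listed start. Of these, a peak of Ndufa13 lay upstream of the start and the others lay at the other end of the gene. The remaining 17 peaks belonged to genes with no listed start. The 250 bases before the start are printed below for Uqcrh and Ndufs7, which had the lowest p among peaks of negative log2 fold change (confined over unconfined), for Ndufb4 and Sdha, which were among the 3 of lowest p with a positive one, and for Ndufs8 and Ndufv1, which had the highest unconfined signal. They are RefSeq sequences of GRCm38.p6, written 5′ to 3′ on the strand of the gene, and capitals mark matches to the motifs described in the next paragraph.
Uqcrh, chr4:116075071-116075320, minus strand: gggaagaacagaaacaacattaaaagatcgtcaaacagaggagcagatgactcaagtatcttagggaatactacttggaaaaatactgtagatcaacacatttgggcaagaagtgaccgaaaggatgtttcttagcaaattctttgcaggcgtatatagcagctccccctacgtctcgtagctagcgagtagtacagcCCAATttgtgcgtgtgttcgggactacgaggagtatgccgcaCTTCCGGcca
Ndufs7, chr10:80249199-80249448, plus strand: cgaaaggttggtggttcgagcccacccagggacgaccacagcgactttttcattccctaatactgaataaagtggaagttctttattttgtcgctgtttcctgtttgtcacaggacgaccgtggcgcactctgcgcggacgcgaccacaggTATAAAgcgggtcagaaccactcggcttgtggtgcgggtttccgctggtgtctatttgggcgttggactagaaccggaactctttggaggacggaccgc
Ndufb4, chr16:37654369-37654618, minus strand: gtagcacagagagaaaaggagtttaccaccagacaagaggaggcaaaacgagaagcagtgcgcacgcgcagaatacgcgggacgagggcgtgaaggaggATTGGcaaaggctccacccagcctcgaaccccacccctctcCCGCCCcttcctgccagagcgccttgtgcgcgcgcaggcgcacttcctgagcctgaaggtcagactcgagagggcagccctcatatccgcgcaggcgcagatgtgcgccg
Sdha, chr13:74350241-74350490, minus strand: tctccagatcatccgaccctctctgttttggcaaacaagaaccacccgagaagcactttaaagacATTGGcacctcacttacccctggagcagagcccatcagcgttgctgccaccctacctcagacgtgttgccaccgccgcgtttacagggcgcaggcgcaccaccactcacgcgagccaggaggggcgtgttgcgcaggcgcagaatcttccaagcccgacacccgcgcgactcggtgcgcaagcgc
Ndufs8, chr19:3912775-3913024, minus strand: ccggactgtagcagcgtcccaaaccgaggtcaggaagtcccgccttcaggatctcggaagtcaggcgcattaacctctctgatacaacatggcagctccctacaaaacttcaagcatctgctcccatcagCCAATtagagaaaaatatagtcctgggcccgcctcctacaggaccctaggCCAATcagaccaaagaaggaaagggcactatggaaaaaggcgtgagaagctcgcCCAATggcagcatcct
Ndufv1, chr19:4012756-4013005, minus strand: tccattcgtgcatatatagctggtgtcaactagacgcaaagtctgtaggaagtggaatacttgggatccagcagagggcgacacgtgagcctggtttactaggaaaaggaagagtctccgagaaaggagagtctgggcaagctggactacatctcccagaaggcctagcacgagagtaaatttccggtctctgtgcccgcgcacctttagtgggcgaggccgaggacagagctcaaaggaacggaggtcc

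Short motifs of factors known to act on nuclear respiratory genes were looked for on both strands of 300-base windows, from 250 bases before to 50 after a start. The member genes had 83 windows (78 genes, with or without a peak), and the comparison windows were those of all protein-coding genes (21262) and of protein-coding genes with a peak (11491). NRF1, nuclear respiratory factor 1, is represented by GCATGCGC, which was present in 14.5% of member windows, 5.47% of windows of genes with a peak and 3.51% of all windows. The YY1 motif AAGATGGCG was present in 9.64%, 3.09% and 1.83%, and the motif of oestrogen-related receptors, TCAAGGTCA, in 2.41%, 0.252% and 0.334%, which for the members was 2 windows. Each of these 3 motifs had a higher share in the member windows than in either comparison set.

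The ETS motif CCGGAAG, which GABP also binds, was present in 22.9% of member windows against 18.5% and 11.6% in the same comparison sets. The GC-box GGGCGG of SP and KLF factors was present in 43.4% against 66.5% and 46.2%, so the member windows held it less often than windows of genes with a peak. CCAAT, the letters bound by NF-Y, was present in 42.2% against 38.1% and 38.2%. The cyclic AMP response element TGACGTCA was present in 4.82% against 3.32% and 2.23%, and TATAAA of the TATA box in 10.8% against 6.07% and 12.6%. The median GC content was 58.3% in member windows, 61.7% in windows of genes with a peak and 56.3% in all windows, so the sets differed in base composition. A match in these windows is a run of letters, not a bound site, and no test was made of these shares.

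**Figure D1:**
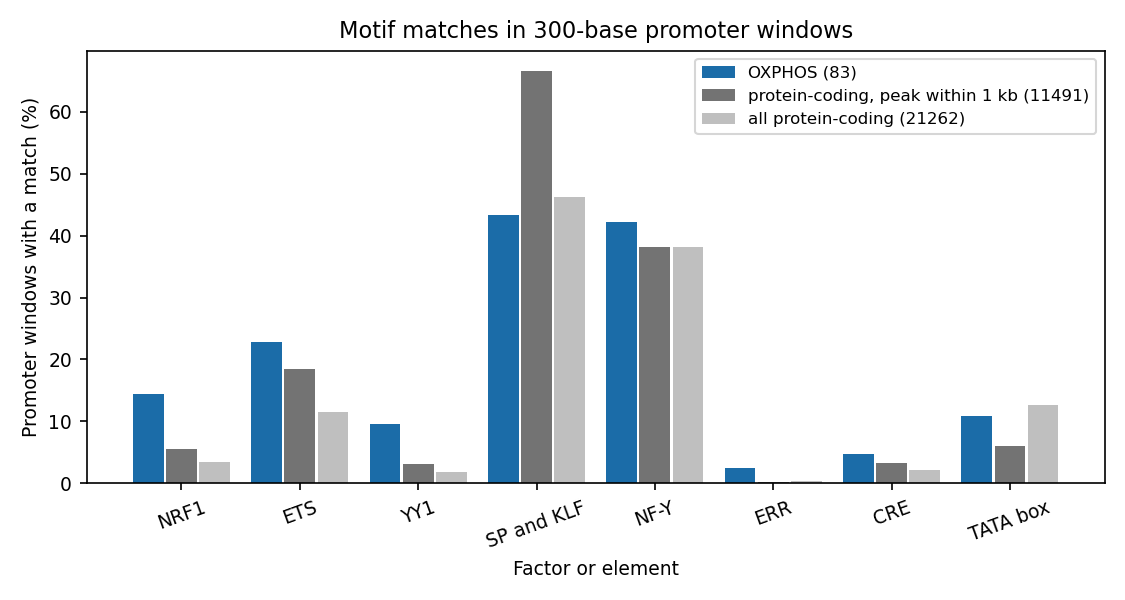
Share of 300-base promoter windows (y axis, percent) with a match to each motif (x axis) for OXPHOS genes (blue), protein-coding genes with a peak within 1 kb (dark grey) and all protein-coding genes (light grey). NRF1 stands at 14.5% in OXPHOS windows and 5.47% in windows of genes with a peak, while the SP and KLF box stands at 43.4% and 66.5%.

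Among the 6 printed promoters, that of Ndufs8 held 3 CCAAT boxes, first bases 120, 70 and 16 bases before the start, and an ETS match 16 bases after it, outside the printed stretch. The Uqcrh promoter held CCAAT at 52 bases and an ETS match on the other strand at 10 bases before the start. Those of Ndufb4 and Sdha each held a CCAAT on the other strand, and Ndufb4 a GC-box as well. The Ndufs7 promoter held TATAAA at 99 bases before the start, and its YY1 match lay 25 bases after the start, outside the printed stretch. In the Ndufv1 window none of the 8 motifs was found, although its peak was among the highest of all members. Across the 69 start peaks, those whose gene held the YY1 motif (7 peaks) had a median unconfined signal of 20.4 CPM and those without it (62) one of 36.6 CPM. CPM stands for a peak's count scaled to a fixed total over all peaks of the library (1000000). For NRF1 the medians were 29.4 CPM with the motif (11 peaks) and 36.8 CPM without it (58).

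Shared promoters were common. Of the 91 peaks, 45 (49.5%) also lay within 1 kb of an end of another protein-coding gene, against 14.3% of all gene-end peaks, 49.4% of peaks of mitochondrial ribosomal protein genes and 27.0% of peaks of proteasome genes. At 24 of the 69 start peaks a listed start of another gene also lay within 1 kb of the peak centre. Such pairs joined Ndufb5 with Mrpl47 (a mitochondrial ribosomal protein), Atp5j with Gabpa (the DNA-binding subunit of the ETS factor GABP), Sdhd with Timm8b (a mitochondrial import chaperone), Ndufa7 with Rps28 (a ribosomal protein) and Uqcrh with Lrrc41. At these peaks the signal of the 2 genes cannot be told apart.

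The whole series sets the precision of what follows. Counts in all peaks were 304898 to 1229478 in the unconfined libraries and 128257 to 340922 in the confined ones, and 3 counts, used as the detection floor, correspond to 2.44 to 9.84 CPM in the former and 8.80 to 23.4 CPM in the latter. The mean member peak held 11.3, 47.6 and 42.4 counts in unconfined libraries 1 to 3 and 9.93, 4.79 and 3.29 counts in confined libraries 1 to 3, so a confined value at a single peak rests on few counts. Peaks were present at 9 of 10 HSC marker genes (all but Ly6a), which took 0.0866% to 0.102% of unconfined and 0.101% to 0.121% of confined counts. No peak lay near Cd3e, Cd3g, Bcl11b, Elane, S100a8 or Hba-a1. Peaks near B cell markers took 0.0118% to 0.0154% of unconfined and 0.0167% to 0.0203% of confined counts, those near 3 of 5 myeloid markers 0.00328% to 0.00382% and 0.00323% to 0.00702%, and those near 3 of 4 erythroid markers 0.00525% to 0.00854% and 0.00497% to 0.00780%. The 1 of 4 T cell markers with a peak, Cd3d, took 0.00472% to 0.0115% and 0.00156% to 0.00499%. Peaks near 3 of 3 megakaryocyte markers took 0.0245% to 0.0284% and 0.0135% to 0.0226%, lower in every confined library, as the members were, and the part of this list in the results was not tested. In bulk libraries, fewer cells of a type and less open chromatin per cell cannot be told apart.

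In unconfined cells the OXPHOS peaks ranged widely in height. Group means ran from 10.05 CPM to 137 CPM, the latter at Ndufs8, with a median of 31.3 CPM against 27.5 CPM over all gene-end peaks. Since every peak is 700 bp wide, these levels are per equal length. The 5 highest belonged to Ndufs8 and Ndufv1 (core subunits of complex I), Ndufb5 (an accessory subunit of complex I), Uqcrq (a small subunit of complex III) and Ndufaf8 (an assembly factor of complex I).

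Ndufs8, whose product carries iron-sulphur clusters on the electron path of complex I, had 161, 122 and 127 CPM in unconfined libraries 1 to 3 and 85.1, 18.1 and 15.6 CPM in confined libraries 1 to 3. Ndufv1, which holds the NADH-binding site, had 151, 84.6 and 98.6 CPM and then 55.7, 40.7 and 7.80 CPM. Both peaks were higher in every unconfined library than in any confined one. Ndufb5 had 102, 86.2 and 136 CPM against 58.7, 40.7 and 23.4 CPM. Uqcrq had 75.4, 97.6 and 133 CPM against 52.8, 4.52 and 31.2 CPM. Ndufaf8 had 85.3, 96.8 and 122 CPM against 73.3, 27.1 and 31.2 CPM, where confined library 1 came close to the lowest unconfined library. In all 5 the groups did not overlap, but these peaks were picked as the highest in unconfined libraries, which favours such a separation.

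In confined cells the spread of heights was narrower. Group means of the 91 peaks ran from 10.6 to 46.2 CPM with a median of 24.2 CPM, and 61 peaks (67.0%) had a lower confined than unconfined mean, against 65.7% of all gene-end peaks. Many confined values were close to the floor of 3 counts, which is 13.6 CPM in confined library 2 and 23.4 CPM in confined library 3.

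**Figure D2:**
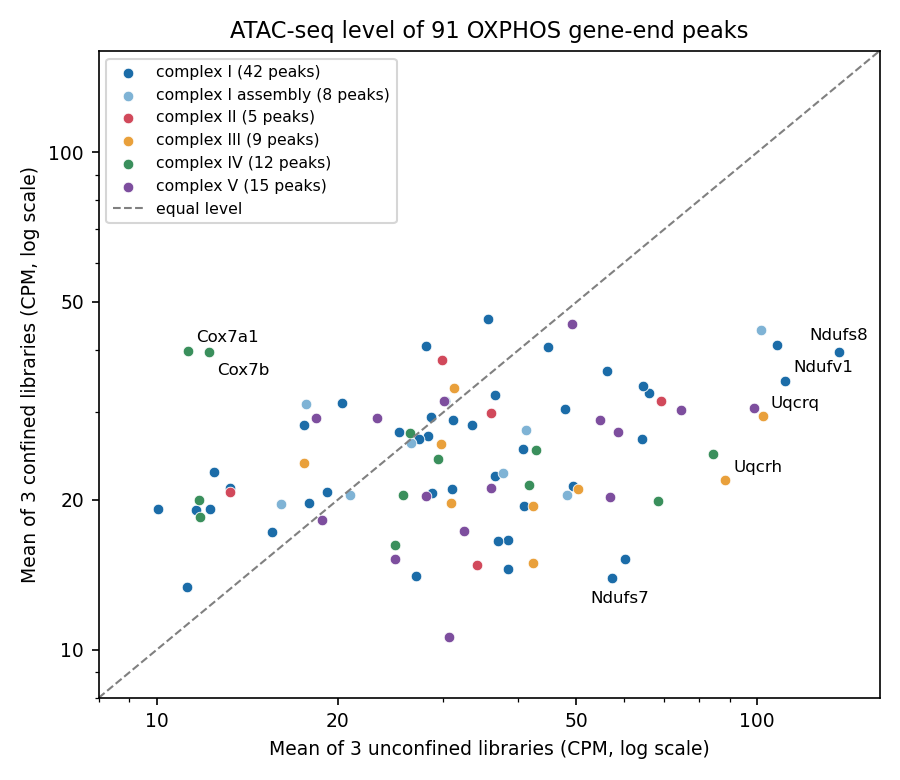
Mean CPM of each of the 91 OXPHOS peaks in unconfined (x axis) and confined libraries (y axis), both on log scales, coloured by complex, with the dashed line of equal level. Unconfined means run from 10.05 to 137 CPM and confined means from 10.6 to 46.2 CPM, and 61 points lie below the line.

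The ranking of the OXPHOS peaks repeated well among unconfined libraries, in part in confined library 1, and hardly in confined libraries 2 and 3. Across the 91 peaks, log2(CPM + 1) gave Pearson's r of 0.773 to 0.899 between pairs of unconfined libraries. Against the unconfined libraries, r was 0.410 to 0.562 for confined library 1, -0.0557 to 0.0584 for the second and -0.180 to -0.0481 for the third. Pairs of confined libraries gave -0.0828 to -0.0456. Over all gene-end peaks the corresponding ranges were 0.783 to 0.893 within unconfined libraries and 0.0596 to 0.175 within confined ones. These are descriptions across peaks of the same libraries, whose depth differs.

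Ndufs8 was the highest of the 91 peaks in unconfined libraries 1 and 2 and at rank 3 in unconfined library 3, and at rank 1, 45 and 56 in confined libraries 1 to 3. Uqcrq was at rank 9, 2 and 2 in the unconfined set and 7, 83 and 24 in the confined set. The ratio of variance to mean of the counts over the 91 peaks, which is 1 when only counting error is present, was 3.65, 2.38 and 3.33 in unconfined libraries 1 to 3 after scaling to the depth of the shallowest library. It was 1.57, 1.31 and 1.20 in confined libraries 1 to 3. Gene-end peaks in general gave 4.51, 3.23 and 4.82 in unconfined and 1.84, 1.29 and 1.49 in confined libraries, and peaks of mitochondrial ribosomal protein genes gave 3.70, 2.56 and 3.75 and then 1.51, 1.11 and 1.24. At the same depth the confined libraries thus held less difference between peaks in all 3 sets.

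Summed together, the 91 OXPHOS peaks took a smaller part of the confined libraries, by nearly the same factor as gene-end peaks in general. Their share of library counts was 0.337% (95% Clopper-Pearson interval 0.317 to 0.358), 0.352% (0.342 to 0.363) and 0.392% (0.380 to 0.405) in unconfined libraries 1 to 3. It was 0.265% (0.248 to 0.283), 0.197% (0.179 to 0.216) and 0.233% (0.207 to 0.261) in confined libraries 1 to 3, and every confined library was below every unconfined one. The intervals cover counting error only. The mean share was 0.360% ± 0.0283 in unconfined and 0.232% ± 0.0341 in confined libraries (SD, n = 3 each), a ratio of 0.643. All gene-end peaks together had a ratio of 0.642. As a share of gene-end counts alone, OXPHOS peaks took 0.819%, 0.913% and 0.911% in unconfined and 0.856%, 0.823% and 0.972% in confined libraries, and these groups overlapped.

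By complex, the ratio of the confined to the unconfined mean share was lowest for the core of complex I, at 0.422, and for complex III, at 0.482. The 7 core peaks took 0.0462%, 0.0403% and 0.0454% of unconfined counts and 0.0273%, 0.0145% and 0.0140% of confined counts. The 9 complex III peaks took 0.0430%, 0.0399% and 0.0476% and then 0.0249%, 0.0154% and 0.0226%. In both sets the groups did not overlap. Complex V had a ratio of 0.591, accessory subunits of complex I 0.744, complex I assembly factors 0.684, complex II 0.742 and complex IV 0.761. In complex II and complex IV, and among the assembly factors, confined library 1 lay within the range of the unconfined libraries. The same ratio was 0.628 for mitochondrial ribosomal protein genes, 0.590 for proteasome genes, 0.448 for TCA cycle genes and 0.453 for regulators of respiratory genes, so sets outside the complexes had ratios as low as those of the complex I core and complex III. The differences between complexes were not tested.

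**Figure D3:**
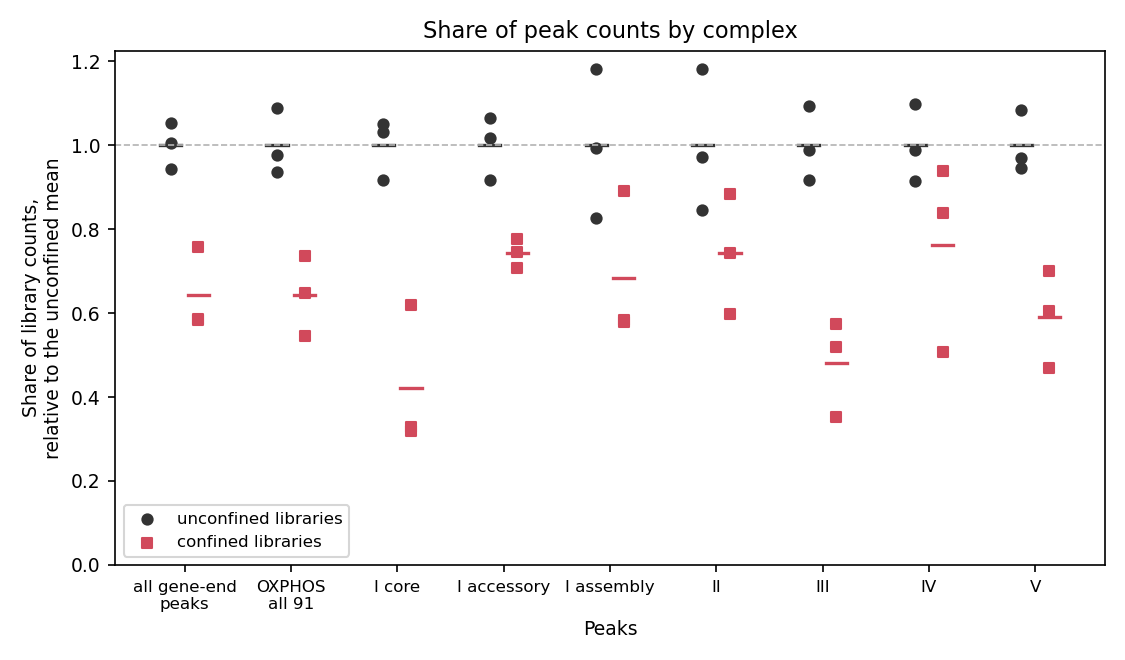
Share of library counts in the peaks of each set, divided by its unconfined mean (y axis), for unconfined (dark circles) and confined libraries (red squares), with group means as bars. All gene-end peaks and all 91 OXPHOS peaks stand at 0.642 and 0.643 in confined libraries, and the complex I core stands at 0.422.

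Single peaks were tested with edgeR's quasi-likelihood test, fitted across the whole table with TMM factors and Benjamini-Hochberg adjustment. The fit compares each peak with the other tested peaks: tested peaks held 43.2% to 51.2% of unconfined and 23.6% to 34.8% of confined counts, so a log2 fold change from it is higher than the change in CPM. A filter that asks for about 31.0 CPM in 3 libraries kept 9084 peaks and 49 of the 91 OXPHOS peaks. Of these 49, 34 reached that limit in all 3 unconfined libraries, 3 (Ndufa8, Ndufb4 and Sdha) in all 3 confined but not all unconfined libraries, and 12 in a mixture.

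None of the 49 OXPHOS peaks passed an adjusted p of 0.05 in edgeR, in either direction, while 2.42% of all tested peaks were called lower and 5.79% higher. Among tested gene-end peaks 3.78% were called lower and 1.08% higher. At an unadjusted p under 0.05, edgeR gave 7 OXPHOS peaks lower and 3 higher, beside 11.8% and 13.3% of all tested peaks. DESeq2 called 0 lower and 0 higher, beside 0.848% and 4.99% of all tested peaks. The limma-voom fit called 0 lower and 2 higher, Ndufa8 and Sdha, which is 4.08% of the 49, beside 2.43% lower and 8.62% higher over all tested peaks and 2.24% higher over gene-end peaks. The median log2 fold change of the 49 peaks was -0.34, with 32 negative, against -0.26 over tested gene-end peaks and -0.02 over all tested peaks.

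Single libraries moved the count as well, for OXPHOS peaks and for all peaks together. Without unconfined library 1, edgeR called 6 of 67 OXPHOS peaks lower (8.96%) and 0 higher, beside 4.79% and 3.54% of all tested peaks and 9.48% of gene-end peaks lower. Without confined library 1 it called 7 of 52 lower (13.5%) and 0 higher, beside 7.42% and 16.0% of all tested peaks and 11.9% of gene-end peaks lower. Without confined library 3 it called 4 of 63 lower (6.35%) and 0 higher, beside 4.31% and 6.67% of all tested peaks and 7.55% of gene-end peaks lower. In these 3 settings the member share lay near that of gene-end peaks. Without unconfined library 2 it called 1 lower and 1 higher of 51, beside 2.43% and 6.01% of all tested peaks. Without unconfined library 3 it called 0 of 49, beside 0.708% lower and 2.56% higher, and without confined library 2 it called 0 of 68, beside 0.588% and 1.84%.

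With the batch number as a replicate block edgeR called 0 OXPHOS peaks, beside 0.815% of all tested peaks lower and 5.24% higher. With confined library 1 standing alone for its group all 91 peaks were tested and 0 were called. In that fit only the unconfined libraries supply the spread and the single confined library is assumed to vary like them, and it called 0.0185% of all tested peaks lower and 0.00793% higher. The median log2 fold change of the 91 peaks was then -0.69, against -0.52 over gene-end peaks.

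The count differed with the scaling and the filter. Under scaling by total counts alone, the median over all tested peaks was -0.68 in place of -0.02, and edgeR called 18 of the 49 OXPHOS peaks lower (36.7%) and 0 higher. Over all tested peaks 25.2% were called lower and 3.83% higher under that scaling, and over tested gene-end peaks 35.4% were called lower. With no filter on low counts, edgeR with TMM called 11 of the 91 OXPHOS peaks lower (12.1%) and 0 higher, beside 4.27% and 1.47% of all peaks and 11.7% of gene-end peaks lower. These 11 peaks were those of Ndufs7, Ndufs8, Ndufv1, Ndufb6 (far end), Uqcrh, Uqcrq, Cox7c, Cox8a, Atp5b (start), Atp5o and Atp5pb, named here because they passed under that setting. In each of these settings the member share was close to that of gene-end peaks.

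Without a test, 33 of the 91 OXPHOS peaks (36.3%) had every confined CPM below every unconfined CPM, and 3 (Ndufb4, Cox7a1 and Cox7b) had every confined CPM above. Over all peaks the shares were 13.2% and 16.8%, and over gene-end peaks 31.4% and 6.34%. With CPM scaled by TMM over the tested peaks the members gave 14 lower and 13 higher, against 4.33% and 37.2% of all peaks and 11.8% and 19.7% of gene-end peaks.

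**Figure D4:**
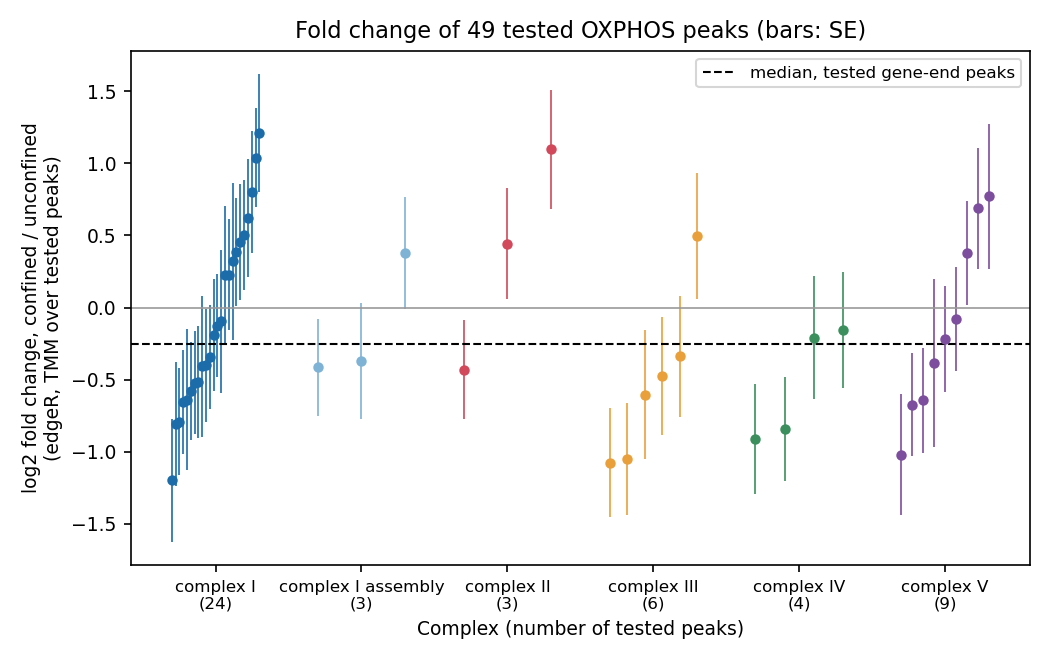
log2 fold change of confined over unconfined libraries (y axis, edgeR with TMM factors, bars are standard errors) for the 49 tested OXPHOS peaks by complex (x axis). None passed an adjusted p of 0.05. Core and accessory subunits of complex I share a column. Their peaks lie on both sides of the dashed median of tested gene-end peaks (-0.26), and those of complex III lie mostly below it.

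Complex I core subunits carry the flavin and iron-sulphur clusters and the quinone site. All 7 genes had a peak, 5 were tested, and their median log2 fold change was -0.66. Ndufs7, which carries the last iron-sulphur cluster before ubiquinone, had 55.8, 52.9 and 63.0 CPM in unconfined and 20.5, 13.6 and 7.80 CPM in confined libraries, and its peak lay at chr10:80248964-80249663. All confined values were below all unconfined ones. The peak passed the filter through the unconfined libraries alone, which favours this direction. The edgeR log2 fold change was -1.20 (SE 0.42, adjusted p = 0.0668), and the adjusted p was 0.00660 with total counts as scaling and 0.0127 without the filter. It was 0.172 with the replicate block, 0.114 in limma-voom and 0.212 in DESeq2. Ndufs8 (chr19:3912497-3913196) had a log2 fold change of -0.79 (SE 0.37, edgeR adjusted p = 0.174) and Ndufv1 (chr19:4012508-4013207) one of -0.66 (SE 0.36, adjusted p = 0.251).

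The other core peaks differed less. Ndufs1, the largest subunit of the electron-input arm, had 32.8, 50.4 and 65.0 CPM against 38.1, 18.1 and 7.80 CPM, with overlapping groups, and shared its peak with Eef1b2. Ndufv2, the partner of Ndufv1, had 39.4, 52.1 and 77.2 CPM against 35.2, 27.1 and 46.8 CPM, also overlapping. Their log2 fold changes were -0.40 and -0.12. Ndufs3 did not reach the filter.

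Accessory subunits surround the core and are needed for its assembly or stability. Of 34 such genes 31 had a peak, Ndufa6, Ndufb4b and Ndufb4c being the ones without, and 19 of 35 peaks were tested, with a median log2 fold change of 0.23, which was -0.44 with total counts as scaling. The 2 OXPHOS peaks with the lowest p of all were in this group and were higher in confined cells on the fit's scale. Both reached the filter's limit in every confined but not every unconfined library, which favours this direction. A peak at the far end of Ndufa8 (chr2:36035327-36036026), a subunit that faces the intermembrane space, had 36.1, 41.5 and 29.5 CPM in unconfined and 55.7, 36.1 and 46.8 CPM in confined libraries, and the groups overlapped. Its log2 fold change was 1.04 (SE 0.35, edgeR adjusted p = 0.0515), and 0.40 with total counts as scaling. The start peak of Ndufa8 went the other way, with 26.2, 29.3 and 25.4 CPM against 17.6, 9.03 and 15.6 CPM, and did not reach the filter.

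Ndufb4 (chr16:37653909-37654608), a subunit of the membrane arm, had 29.5, 29.3 and 25.4 CPM in unconfined and 32.3, 58.7 and 31.2 CPM in confined libraries. The groups were apart by a small margin, and the confined mean rested on 11, 13 and 4 counts. Its log2 fold change was 1.21 (SE 0.41, edgeR adjusted p = 0.0556). With total counts as scaling it was 0.55 and with confined library 1 standing alone for its group 0.0060. Ndufb5, one of the highest peaks, had a log2 fold change of -0.58 (SE 0.34, adjusted p = 0.286). Ndufa9 and Ndufb8, which are often used as markers of assembled complex I, had 3.28 to 21.1 CPM and 3.28 to 20.3 CPM in unconfined libraries and did not reach the filter. Among the assembly factors (8 of 8 genes with a peak, 3 tested), Ndufaf8 had a log2 fold change of -0.42 (SE 0.33, adjusted p = 0.463).

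Complex II, the succinate dehydrogenase shared with the TCA cycle, had peaks at all 4 genes. The median log2 fold change of its 3 tested peaks was 0.44, and -0.19 with total counts as scaling. Sdha, the flavoprotein that oxidises succinate, had 36.1, 22.0 and 31.5 CPM in unconfined and 35.2, 40.7 and 39.0 CPM in confined libraries (chr13:74349935-74350634, shared with the start of Ccdc127). The confined libraries were close to each other and unconfined library 1 lay within their range. The log2 fold change was 1.10 (SE 0.41, edgeR adjusted p = 0.0863), and 0.44 with total counts as scaling.

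Sdhb, the iron-sulphur subunit, had at its start 62.3, 62.6 and 82.3 CPM against 41.1, 22.6 and 31.2 CPM, with groups apart and a log2 fold change of -0.43 (SE 0.34, edgeR adjusted p = 0.461). A lower peak at the far end of Sdhb had 6.56, 17.9 and 15.2 CPM against 5.87, 40.7 and 15.6 CPM. The membrane anchors Sdhc and Sdhd had group means of 36.0 ± 12.1 and 29.9 ± 20.4 CPM, and of 34.2 ± 7.03 and 14.8 ± 13.5 CPM (unconfined and confined, SD, n = 3 each), and in both genes the groups overlapped. Within complex II, peaks of subunits of 1 enzyme thus differed in sign on the fit's scale. None passed the threshold in edgeR, and limma-voom called Sdha higher (log2 fold change 0.97, adjusted p = 0.0486). Sdha reached the filter's limit in every confined but not every unconfined library, which favours this direction.

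Complex III transfers electrons from ubiquinol to cytochrome c. All 9 genes had 1 peak each, 6 were tested, and the median log2 fold change was -0.54. Uqcrh, the hinge protein that binds cytochrome c1, had 98.4, 69.9 and 96.6 CPM in unconfined and 41.1, 9.03 and 15.6 CPM in confined libraries (chr4:116075031-116075730, shared with the start of Lrrc41). The groups were apart. The log2 fold change was -1.07 (SE 0.38, edgeR adjusted p = 0.0654). Uqcrq (chr11:53430694-53431393, shared with an end of Gdf9) had a log2 fold change of -1.05 (SE 0.39, adjusted p = 0.0797).

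The other complex III peaks named here were less high. Uqcrfs1, the Rieske iron-sulphur protein, had 39.4, 39.9 and 47.8 CPM against 23.5, 27.1 and 7.80 CPM, and Uqcrc2, a core scaffold protein, had 45.9, 37.4 and 43.7 CPM against 23.5, 13.6 and 7.80 CPM. Both were apart, with log2 fold changes of -0.34 and -0.60. Both peaks passed the filter through the unconfined libraries alone, which favours this direction. Cyc1, cytochrome c1, had 23.0, 18.7 and 11.2 CPM against 26.4, 13.6 and 31.2 CPM and did not reach the filter, nor did Uqcrc1, with 30.9 ± 7.65 and 19.7 ± 3.22 CPM (SD, n = 3 each). Uqcrb, the ubiquinone-binding small subunit, was the complex III peak with the most positive log2 fold change, 0.50 (SE 0.44), with overlapping groups, and it was -0.16 with total counts as scaling.

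Complex IV, cytochrome c oxidase, reduces oxygen. Peaks were found at 12 of 18 genes, and those without were Cox5a, Cox6a2, Cox7a2, Cox7b2, Cox8b and Cox8c. The start of Cox5a is thus not represented, its nearest peak centre lying 3975 bp from a gene end. Of 12 peaks 4 were tested, with a median log2 fold change of -0.52. Cox8a, the form of subunit 8 found in most tissues, had 82.0, 75.6 and 95.5 CPM in unconfined and 44.0, 22.6 and 7.80 CPM in confined libraries. Cox7c had 68.9, 60.2 and 76.2 CPM against 35.2, 9.03 and 15.6 CPM. In both genes the groups were apart. Their log2 fold changes were -0.84 (SE 0.36, edgeR adjusted p = 0.132) and -0.91 (SE 0.38, adjusted p = 0.124), and Cox5b had -0.15 (SE 0.40).

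Some subunits, mostly of complex IV, have forms with restricted expression, such as heart, muscle or testis forms. Of the 8 such genes considered, Cox4i2, Cox6b2, Cox7a1 and Ndufa4l2 (2 peaks, counted with complex I here) had a peak, and Cox6a2, Cox7b2, Cox8b and Cox8c had none. Cox7a1, the heart and muscle form of subunit 7a, had 0, 15.5 and 18.3 CPM in unconfined and 38.1, 27.1 and 54.6 CPM in confined libraries. Every confined library was above every unconfined one. The 0 counts in unconfined library 1 allow up to 9.84 CPM. The peak was under the filter, and without a filter the log2 fold change was 1.20 (SE 0.46, edgeR adjusted p = 0.0872). Cox7b, chosen here because it was the other complex IV peak with groups apart in this direction, had 0, 16.3 and 20.3 CPM against 29.3, 27.1 and 62.4 CPM. Cox4i2, Cox6b2 and both Ndufa4l2 peaks had overlapping groups and unconfined means of 11.8 to 26.4 CPM.

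Complex V makes ATP. Peaks were found at 14 of 17 genes (not Atp5d, Atp5g1 or Atp5g3), 9 of 15 peaks were tested, and their median log2 fold change was -0.22. Atp5pb, a subunit of the peripheral stalk, had 42.6, 57.7 and 70.1 CPM in unconfined and 20.5, 9.03 and 31.2 CPM in confined libraries, with groups apart, a log2 fold change of -1.02 (SE 0.42, edgeR adjusted p = 0.118) and a peak shared with the start of Wdr77. Atp5b, the catalytic beta subunit, had at its start 108, 75.6 and 113 CPM against 61.6, 22.6 and 7.80 CPM, also apart. Its log2 fold change was -0.67 (SE 0.36, adjusted p = 0.232).

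Other subunits of the ATP synthase differed among themselves. Atp5c1, the gamma subunit of the rotor, had 49.2, 55.3 and 42.7 CPM against 32.3, 40.7 and 62.4 CPM, and Atp5l, a membrane subunit, had 6.56, 31.7 and 31.5 CPM against 23.5, 40.7 and 23.4 CPM. Both overlapped, and Atp5l had the most positive log2 fold change of the complex, 0.77 (SE 0.50), which was -0.10 without the filter. Atp5a1, the alpha subunit, had 39.4, 23.6 and 34.6 CPM against 11.7, 9.03 and 31.2 CPM. Atp5o, another stalk subunit, had 23.0, 32.5 and 36.6 CPM against 11.7, 4.52 and 15.6 CPM with groups apart, and did not reach the filter. Without the filter its log2 fold change was -1.85 (edgeR adjusted p = 0.0287).

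**Figure D5:**
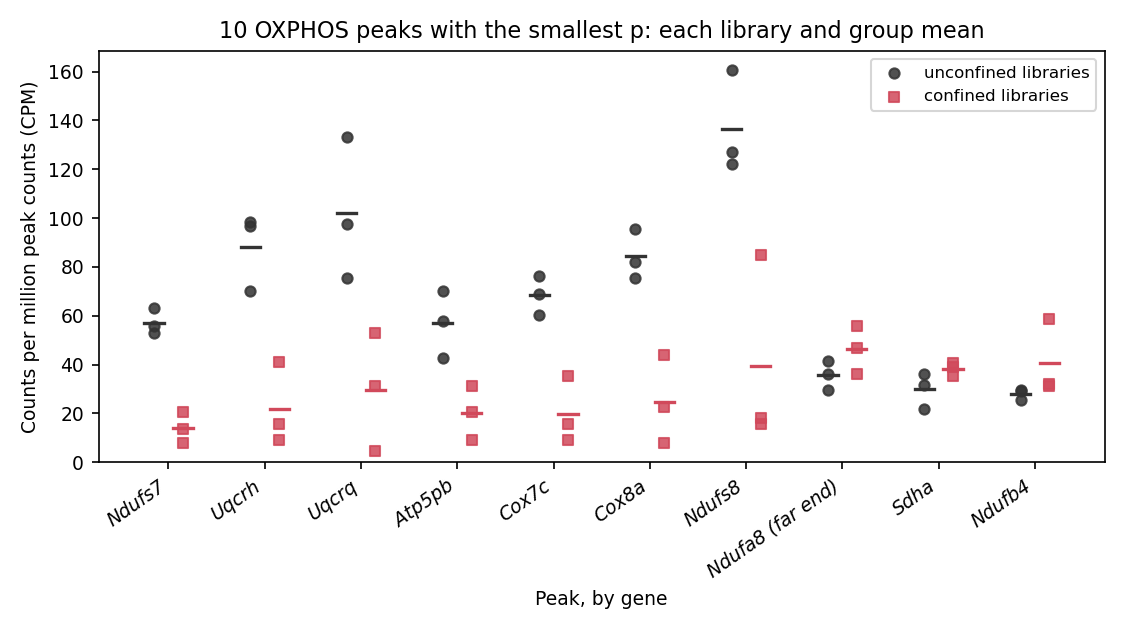
CPM in each library (y axis) of the 10 OXPHOS peaks with the smallest p (x axis), unconfined as dark circles, confined as red squares, group means as bars. In the 7 peaks of negative log2 fold change all 3 unconfined libraries lie above all 3 confined ones. Among Ndufa8, Ndufb4 and Sdha only Ndufb4 has groups that do not overlap. The peaks were picked by p from these same libraries, which favours such a separation.

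Other genes of the pathway gave 1 call in edgeR with filter and TMM. It was 1 lower of 20 tested assembly factor peaks, beside 3.78% of tested gene-end peaks and 2.42% of all tested peaks. Of 32 assembly factors outside the rule, 31 had a peak and 20 of 34 peaks were tested. Bcs1l, which inserts the Rieske protein into complex III, fell from 160 ± 30.1 to 37.6 ± 10.7 CPM (SD, n = 3 each), with a log2 fold change of -1.29 (SE 0.39, edgeR adjusted p = 0.0302). With the batch number as a replicate block the log2 fold change was -1.35 and the call was lost (edgeR adjusted p = 0.122). The call was also lost without unconfined library 1, 2 or 3 (log2 fold changes -1.74, -1.58 and -1.48, adjusted p = 0.0528, 0.0531 and 0.119) and without confined library 2 (-1.50, adjusted p = 0.0720). It held in DESeq2 (adjusted p = 0.0285) and limma-voom (0.00980), with RLE, total counts, no filter or a minimum mean count of 10 (0.0128 to 0.0266), and without confined library 1 or 3 (0.0136 and 0.0110). With confined library 1 standing alone for its group the Bcs1l log2 fold change was -1.88. In the edgeR fit with filter and TMM, Bcs1l was the only call in this list, whose median log2 fold change was -0.11. For the same list limma-voom called 1 of 20 lower and 1 higher, beside 3.95% and 2.24% of gene-end peaks. With total counts edgeR called 6 of 20 lower, beside 35.4%, and with no filter 6 of 34, beside 11.7%. Without confined library 1 it called 4 lower and 2 higher of 20, beside 11.9% and 3.60%. Genes of cytochrome c and ubiquinone synthesis (6 tested of 12 peaks), the TCA cycle (8 of 13) and regulators of respiratory genes (8 of 12) had medians of -0.48, -0.40 and -0.40. In the edgeR fit with filter and TMM these 3 lists had no call in either direction. At an unadjusted p under 0.05 that fit gave 0, 2 and 1 peaks, all lower, beside 11.8% of all tested peaks lower. DESeq2 and limma-voom called 0 peaks in these 3 lists. With total counts as scaling edgeR called 3 lower in each list, beside 35.4% of tested gene-end peaks. With no filter it called 2, 4 and 3 lower, beside 11.7%, and without confined library 1 it called 1, 3 and 1 lower, beside 11.9%.

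Among the regulators, Esrra, an orphan receptor that binds promoters of respiratory genes, had at the higher of its 2 peaks 116 ± 24.2 CPM in unconfined and 34.2 ± 25.5 CPM in confined libraries (SD, n = 3 each, log2 fold change -0.87, SE 0.36, edgeR adjusted p = 0.124). Gabpa shared its peak with Atp5j and had a log2 fold change of -0.08. Tfam, which packages mitochondrial DNA, had 0.00 (SE 0.41). The peaks of Nrf1, Ppargc1a and Ppargc1b did not reach the filter. Mitochondrial ribosomal protein genes (39 tested of 79 peaks) and proteasome genes (20 of 37) had median log2 fold changes of -0.25 and -0.24, near those of the OXPHOS peaks and of gene-end peaks.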

How the data were processed

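Raw counts per peak for 6 ATAC-seq libraries (3 unconfined, 3 confined) were used as deposited by the authors, with peak coordinates on mm10. SAMtools 1.14, R 4.2.0, featureCounts and mm10 are named per the submitters' processing notes. Not given in the sources used here are the read aligner, how peaks were called and on which libraries, whether duplicates were removed, and whether reads were shifted to the transposase's cut site. Peaks called mainly from deeper libraries would leave out sites open only in shallow ones.

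Peaks were assigned to RefSeq genes of GRCm38.p6. Gene models, promoter windows and starts came from the same build. Exon and intron positions were not used here. The members, lists and tests were chosen with earlier results of these data known. Named peaks were the 10 tested ones with the smallest p, the 5 highest in unconfined libraries, the extremes of each complex, a set of textbook subunits and forms with restricted expression. Values of some named items are not reported here.

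The count test was edgeR 4.0.16 (R 4.3.3, with filterByExpr, TMM, quasi-likelihood, two-sided, Benjamini-Hochberg over all tested peaks, threshold 0.05). DESeq2 1.42.0, limma-voom (limma 3.58.1), other scalings and filters, left-out libraries, a replicate block, confined library 1 alone, thinning to the smallest library and other member rules were alternatives. The fit was tested on simulated counts. Shares and figures used Python 3.11.15 with SciPy 1.17.1.

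The labels give same-numbered samples a shared experimental batch, which is where the pairing comes from. Deviations from group means correlated at r = -0.0042, 0.0118 and -0.0641 for pairs 1 to 3, and at -0.128 to 0.133 for differently numbered libraries.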

Additional observations from a re-analysis of the deposited data

How the results depend on the processing

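The fit of 49 tested peaks called 0 OXPHOS peaks. The count called lower was 18 under scaling by total counts alone, 11 with no filter and 4 under a minimum mean count of 10. The count called higher was 1 under that minimum, 1 with RLE size factors and 2 with limma-voom. Under the minimum these were 5.00% lower and 1.25% higher of 80 members, beside 2.96% and 2.92% of all tested peaks and 5.63% and 0.659% of gene-end peaks. With RLE it was 2.04% higher, beside 5.72% of all tested peaks and 1.10% of gene-end peaks. Leaving out 1 library gave 0 to 7 lower and 0 to 1 higher. The median log2 fold change, -0.34, was -0.98 with total counts, -0.65 with no filter, -0.69 with confined library 1 alone and -0.22 with limma-voom, and -0.71 to -0.34 with 1 library left out. The direction of the median was negative under all alternatives run. The difference in share of counts, -0.129 percentage points, ranged from -0.145 to -0.111 with 1 library left out.

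With the replicate block, pairing libraries by batch, 0 peaks were called and the median was -0.25; the block changed no call of an OXPHOS peak. The sign of some single peaks turned: Ndufb5 to 0.57 after thinning, Atp5l to -0.10 with no filter and -0.45 with confined library 1 alone, and Uqcrb to -0.16 with total counts, -0.33 with no filter, -0.68 with confined library 1 alone and -0.084 to 0.86 with 1 library left out (-0.06 without unconfined library 1, -0.084 without confined library 3). The cause was not tested. Thinning left 4 tested peaks, and restricting members to 500 bp, 2 kb, listed starts or structural subunits called 0. Depth limits all confined values, since 3 counts equal 23.4 CPM in confined library 3.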
